A study of Homo sapiens with 6 samples.

Results

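Interferon-stimulated genes and RNA sensors were compared between 231-BR cells, a brain-seeking variant of a human triple-negative breast cancer line, and the parental MDA-MB-231 cells. The 39 genes were chosen by symbol as well-known genes of the interferon response, and all 39 are among the 17039 genes of the deposited expression table. Earlier results of these data were known when they were chosen, so counts, shares and medians over the list are descriptions. Poly(A) RNA of 6 libraries had been sequenced, 3 from each line, and the level of each gene was given in FPKM, a count of fragments divided by transcript length and by the mapped fragments of the library. Both lines were grown in DMEM with fetal bovine serum and antibiotics, and no interferon treatment is named for either. The medium of 231-BR cells also held G418, so the line and this agent cannot be told apart, and each group is a single cell line. The 231-BR cells were a gift from another laboratory, whereas the MDA-MB-231 cells were bought from ATCC. The origin of the stock therefore cannot be told apart from the line either. It is not stated whether the libraries of a line came from separate cultures, so the p-values measure only the spread between these libraries.

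Interferons are secreted proteins that cells release on sensing foreign or misplaced nucleic acid. Type I interferons bind the receptor IFNAR1 and IFNAR2, whose kinases JAK1 and TYK2 phosphorylate STAT proteins. STAT2 and IRF9 are parts of the transcription factor that then binds a promoter element whose core repeats the bases TTTC, and raises many antiviral genes. Many tumour lines hold part of this program at a steady level without added interferon.

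The libraries of a line were close to each other. The lowest correlation of log2 values within a line was 0.996 and the highest between lines was 0.935, over 13465 genes (genes are no replicates). The summed FPKM of the 231-BR libraries was 465020 to 472007 and that of the MDA-MB-231 libraries 486937 to 496420. Without read counts the depth is unknown, and no interval resting on it was computed. Of 9 marker genes of breast cancer lines, 8 were tested, of which VIM, EGFR and ERBB2 were called higher in 231-BR cells and CD44, AXL, KRT8 and KRT18 lower. The largest of these differences was that of EGFR, with a mean of 91.2 FPKM against 33.3. VIM had 2306 to 2553 FPKM in the means of the lines, PGR stayed under 0.1 FPKM and ESR1 had 0.740 to 1.08 FPKM, while the mean of ERBB2 was 9.88 FPKM in 231-BR against 4.95 in the parental line. Of 14 leukocyte markers 6 are in the table, and apart from CD8A their sum was 0.11 to 0.33 FPKM per 231-BR library and 0.18 to 0.28 per MDA-MB-231 library, with PTPRC at 0 in every MDA-MB-231 library and at most 0.04 in 231-BR cells. CD8A had 1.40 to 1.54 FPKM per 231-BR library and 0.20 to 0.30 per MDA-MB-231 library. Whether other cells contribute to the values below was not tested.

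Of the 39 genes, 25 were significantly higher in 231-BR cells, 4 were significantly lower, 9 did not pass the test and 1, RSAD2, was below the filter on low values. Genes with a mean of at least 0.1 FPKM were tested on log2(FPKM + 0.1) with limma, and a gene passed the test, or was called, where its adjusted p was under 0.05. This held for 77.3% of the 13465 genes tested, 44.4% being higher and 32.9% lower in 231-BR cells. Among the 38 interferon genes tested the shares were 65.8% and 10.5%. Their median log2 fold change was 0.46, against 0.08 over all genes tested, and the middle 50% of all genes ran from -0.27 to 0.49. For 29 of the 38 genes every library of 1 line lay above every library of the other, against 78.4% of all genes tested. In bulk RNA, a higher level in every cell and a larger share of expressing cells cannot be told apart.

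**Figure D1:**
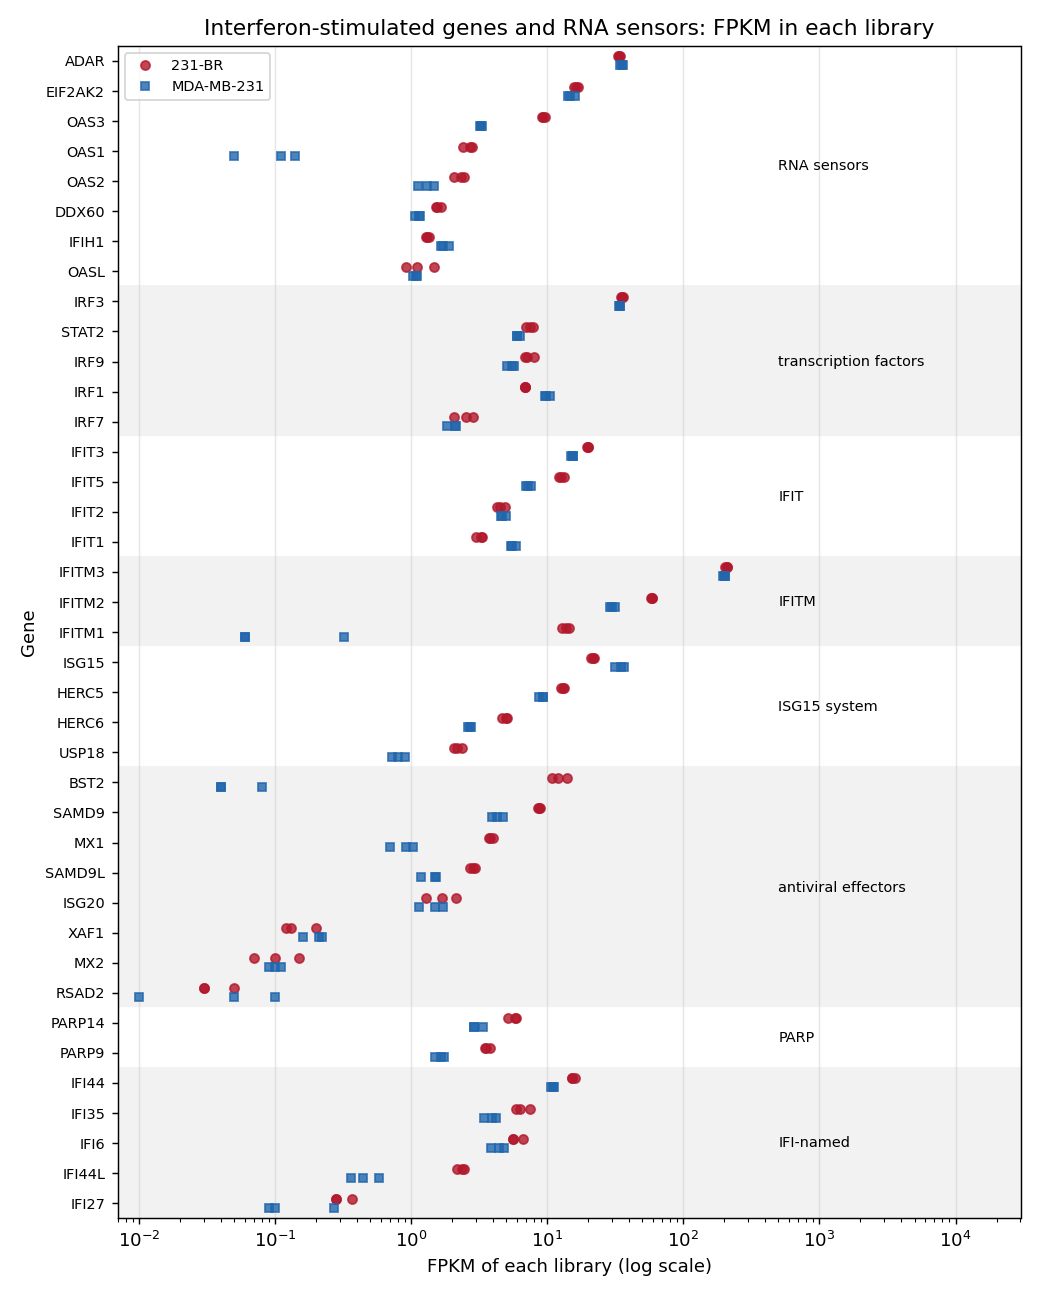
FPKM of each of the 39 genes (log scale, horizontal axis) in the 3 libraries of 231-BR cells (circles) and the 3 of MDA-MB-231 cells (squares), ordered by role and level. BST2, IFITM1 and OAS1 lie under 0.4 FPKM in every MDA-MB-231 library and above 2 in every 231-BR library, while ISG15, IFIT1, IRF1 and IFIH1 lie lower in 231-BR cells.

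The largest differences were those of 3 genes that were close to silent in the parental line. BST2, or tetherin, a membrane protein that holds budding virions at the cell surface, had 12.02, 13.9 and 10.9 FPKM in the 231-BR libraries and 0.04, 0.08 and 0.04 FPKM in the MDA-MB-231 libraries. Every 231-BR library was far above every MDA-MB-231 library, with a log2 fold change of 6.34 (standard error, SE, 0.13, adjusted p = 9.4e-11). IFITM1, which sits in the plasma membrane and blocks virus entry there, had 12.9, 14.4 and 13.7 FPKM against 0.32, 0.06 and 0.06 FPKM, a log2 fold change of 5.96 (SE 0.31, adjusted p = 5.3e-08). OAS1, which makes the 2-5A messenger of RNA decay on binding double-stranded RNA, had 2.79, 2.69 and 2.41 FPKM against 0.05, 0.14 and 0.11 FPKM, a log2 fold change of 3.80 (SE 0.17, adjusted p = 2.1e-08). For these genes the size of the fold change rests on the pseudocount. With a pseudocount of 0.01 the log2 fold changes of BST2, IFITM1 and OAS1 were 7.65, 6.86 and 4.68, and with a pseudocount of 1 they were 3.65, 3.68 and 1.72. The first MDA-MB-231 library held the highest IFITM1 value of its line, and without it the log2 fold change was 6.43.

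IFITM1 is part of a row of closely related genes on chromosome 11. IFITM3, which acts on viruses in endosomes, was the most expressed of the 39 genes, with 202, 209 and 209 FPKM in 231-BR cells and 195, 202 and 201 FPKM in MDA-MB-231 cells. The libraries overlapped, with a log2 fold change of 0.05 (95% interval -0.01 to 0.10, adjusted p = 0.091). IFITM3 passed the test with the replicate number as a block (adjusted p = 0.031) and without 231-BR replicate 1 (adjusted p = 0.040), and after quantile normalization it was called with a log2 fold change of 0.15 (adjusted p = 7.9e-05). After median-of-ratios scaling its log2 fold change was -0.03. IFITM2 lay between them, with 58.3, 59.2 and 58.8 FPKM against 31.7, 29.9 and 28.9 FPKM, a log2 fold change of 0.96 (SE 0.035, adjusted p = 4.2e-09). The neighbouring genes around the IFITM row had a median log2 fold change of -0.40. In GENCODE release 29, 37.7% of the 100-base stretches of the longest IFITM1 coding transcript, and 5.9% of those of IFITM3, also occur in transcripts of the other IFITM genes. How reads of such stretches were divided is not stated, so the 3 values are not fully separate. A further 21.3% of the annotated exon bases of IFITM3 overlap a gene on the opposite strand, and whether the libraries kept strand is not stated.

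The promoter windows of BST2, IFITM1, IFIT1, ISG15 and IFITM3 are shown because genes with this element moved up, moved down or did not pass the test. They are RefSeq sequences of GRCh38.p14, from 250 bases before to 50 bases after the annotated start, each 5′ to 3′ on the strand of the gene, and capitals mark each match to TTTC, any 2 bases and TTTC again, or to its reverse complement, GAAA, any 2 bases and GAAA. The windows lie at chr19:17405581-17405880 (minus strand) for BST2, chr11:313790-314089 (plus strand) for IFITM1, chr10:89392373-89392672 (plus strand) for IFIT1, chr1:1013247-1013546 (plus strand) for ISG15 and chr11:320811-321110 (minus strand) for IFITM3.
BST2: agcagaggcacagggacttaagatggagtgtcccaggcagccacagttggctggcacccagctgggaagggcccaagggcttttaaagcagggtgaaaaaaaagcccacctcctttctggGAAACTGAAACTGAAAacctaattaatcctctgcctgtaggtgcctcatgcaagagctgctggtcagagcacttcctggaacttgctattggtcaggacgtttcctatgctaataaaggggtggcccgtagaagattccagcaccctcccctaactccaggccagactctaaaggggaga
IFITM1: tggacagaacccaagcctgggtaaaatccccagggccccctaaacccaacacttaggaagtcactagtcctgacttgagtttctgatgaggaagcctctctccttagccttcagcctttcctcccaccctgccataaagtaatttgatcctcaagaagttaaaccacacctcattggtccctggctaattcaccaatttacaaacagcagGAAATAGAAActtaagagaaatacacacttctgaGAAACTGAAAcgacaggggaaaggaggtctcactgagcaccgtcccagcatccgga
IFIT1: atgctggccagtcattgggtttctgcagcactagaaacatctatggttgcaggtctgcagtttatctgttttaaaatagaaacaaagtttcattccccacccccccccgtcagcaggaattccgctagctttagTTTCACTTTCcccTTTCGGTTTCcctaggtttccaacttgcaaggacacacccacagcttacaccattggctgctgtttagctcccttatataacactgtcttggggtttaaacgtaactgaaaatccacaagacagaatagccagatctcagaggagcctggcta
ISG15: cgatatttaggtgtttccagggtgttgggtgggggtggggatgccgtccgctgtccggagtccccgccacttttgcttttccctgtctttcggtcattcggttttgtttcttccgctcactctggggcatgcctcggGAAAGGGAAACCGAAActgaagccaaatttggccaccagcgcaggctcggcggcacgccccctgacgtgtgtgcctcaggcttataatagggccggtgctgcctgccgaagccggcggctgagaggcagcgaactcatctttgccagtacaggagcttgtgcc
IFITM3: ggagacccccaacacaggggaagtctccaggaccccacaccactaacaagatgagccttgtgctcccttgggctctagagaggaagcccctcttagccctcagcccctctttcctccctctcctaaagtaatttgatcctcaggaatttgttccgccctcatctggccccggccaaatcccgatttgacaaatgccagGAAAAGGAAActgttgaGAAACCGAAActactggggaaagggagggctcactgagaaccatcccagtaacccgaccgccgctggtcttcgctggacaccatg
BST2 held 2 matches that share 4 bases, starting 130 and 124 bases before the start. IFITM1 held 2 matches 40 and 6 bases before the start, and IFITM3 held 2 matches 52 and 35 bases before it. ISG15 and IFIT1, which are lower in 231-BR cells, also held 2 matches each.

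A window was given for 31 of the 39 genes, and 20 of these (64.5%) held the motif on either strand, against 324 of 10920 (3.0%) of the genes tested and 996 of 27305 (3.6%) of all windows. Among the genes called higher it was found in 14 of 21 windows, among those called lower in 3 of 4 and among those not called in 3 of 5. The window of RSAD2, which was not tested, held none. The motif was absent from the window of OAS1 as well, and from those of PARP9, IRF1, IRF9, STAT2, IFI35, HERC6, SAMD9L, XAF1 and ADAR. The window of DTX3L, which shares the promoter of PARP9, held a match 6 bases before the start of DTX3L. A match describes these letters in this window and says nothing about binding in either line.

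Of the 8 RNA sensors and enzymes that bind double-stranded RNA, 4 rose, 1 fell and 3 did not pass the test, shares of 50% and 12.5% for the rises and the fall, where 44.4% and 32.9% of all genes tested were called. OAS3, the OAS enzyme with the greatest part in activating RNase L, had 9.55, 9.35 and 9.08 FPKM in 231-BR cells and 3.24, 3.20 and 3.31 FPKM in MDA-MB-231 cells, a log2 fold change of 1.49 (SE 0.049, adjusted p = 2.2e-09). OAS2 had 2.44, 2.33 and 2.05 FPKM against 1.31, 1.48 and 1.13 FPKM, a log2 fold change of 0.76 (SE 0.11, adjusted p = 0.00012). OASL, which lacks the enzyme activity and supports RIG-I, had 0.92, 1.48 and 1.11 FPKM against 1.04, 1.11 and 1.08 FPKM, so that the libraries overlapped (log2 fold change 0.09, 95% interval -0.25 to 0.42, adjusted p = 0.61). OAS1, OAS2 and OAS3 thus rose to different degrees within 1 row of genes on chromosome 12, whose neighbours had a median log2 fold change of 0.37.

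IFIH1, which encodes MDA5, the sensor of long double-stranded RNA, was the 1 member of this group of 8 that fell. It had 1.31, 1.35 and 1.29 FPKM in 231-BR cells and 1.67, 1.71 and 1.91 FPKM in MDA-MB-231 cells, a log2 fold change of -0.39 (SE 0.088, adjusted p = 0.0021). DDX60, a helicase linked to RIG-I signalling, had 1.51, 1.65 and 1.55 FPKM against 1.15, 1.17 and 1.07 FPKM, a log2 fold change of 0.44 (SE 0.089, adjusted p = 0.0011), a call that was lost after quantile normalization (adjusted p = 0.67). EIF2AK2, the kinase PKR that stops translation on binding double-stranded RNA, had 16.7, 16.2 and 15.7 FPKM against 16.0, 14.8 and 14.2 FPKM. Its libraries overlapped, with a log2 fold change of 0.11 (95% interval 0.005 to 0.22) and an adjusted p = 0.055. With the replicate number as a block its adjusted p was 0.018, and without MDA-MB-231 replicate 1 it was 0.0074. ADAR, which edits double-stranded RNA and keeps it from being sensed, had 33.6, 34.2 and 33.4 FPKM against 36.0, 35.5 and 34.1 FPKM, a log2 fold change of -0.06 (95% interval -0.13 to 0.01, adjusted p = 0.085). ADAR was called lower after median-of-ratios scaling (log2 fold change -0.14), after quantile normalization (-0.10) and without MDA-MB-231 replicate 3 (-0.08).

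Of the 5 transcription factors, 3 were called higher (60%) and 1 lower (20%), where 44.4% and 32.9% of all genes tested were. No log2 fold change among them was beyond -0.53 or 0.43. STAT2 had 7.81, 7.41 and 6.95 FPKM in 231-BR cells and 6.04, 6.36 and 6.04 FPKM in MDA-MB-231 cells, a log2 fold change of 0.26 (SE 0.055, adjusted p = 0.0016). IRF9 had 7.12, 6.83 and 8.03 FPKM against 5.04, 5.67 and 5.47 FPKM, a log2 fold change of 0.43 (SE 0.071, adjusted p = 0.00026). In both genes every 231-BR library was above every MDA-MB-231 library, but the call of STAT2 was lost after quantile normalization (adjusted p = 0.14). IRF1, which is induced by interferon gamma and by NF-kB, fell, with 6.88, 6.82 and 6.86 FPKM against 10.5, 9.66 and 9.72 FPKM, a log2 fold change of -0.53 (SE 0.047, adjusted p = 2.7e-06). IRF3, the factor that sensors activate first, had 34.9, 35.6 and 36.1 FPKM against 34.4, 33.7 and 34.3 FPKM, a log2 fold change of 0.06 (95% interval -0.004 to 0.12, adjusted p = 0.079), and -0.03 after median-of-ratios scaling. IRF7, the factor that amplifies interferon alpha, had 2.87, 2.55 and 2.07 FPKM against 1.83, 2.12 and 2.11 FPKM. The IRF7 libraries overlapped, and its adjusted p of 0.048 did not hold when 231-BR replicate 1 was left out (adjusted p = 0.19), nor when 231-BR replicate 2 (0.12) or MDA-MB-231 replicate 1 (0.15), 2 (0.061) or 3 (0.064) was. Its log2 fold change was 0.28, and -0.06 after quantile normalization. All 100-base stretches of the IRF9 transcript also occur in an annotated read-through gene, and 19.3% of the exon bases of IRF3, and a similar share in IRF1, overlap a gene on the opposite strand.

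The IFIT genes lie side by side on chromosome 10 and did not move together. IFIT1, which recognises caps that lack 2'-O-methylation, fell, with 3.02, 3.30 and 3.27 FPKM in 231-BR cells and 5.54, 5.43 and 5.87 FPKM in MDA-MB-231 cells, a log2 fold change of -0.79 (SE 0.062, adjusted p = 1.0e-06). This was the largest decrease among the 38 genes tested. IFIT2 had 4.52, 4.31 and 4.86 FPKM against 4.66, 4.98 and 4.56 FPKM, with overlapping libraries. This gave a log2 fold change of -0.05 (95% interval -0.20 to 0.09, adjusted p = 0.47). After quantile normalization IFIT2 was called lower (log2 fold change -0.28, adjusted p = 0.0029). IFIT3, the partner that stabilises IFIT1, rose from 15.3 ± 0.252 to 19.9 ± 0.175 FPKM (SD, n = 3 each), with a log2 fold change of 0.38. IFIT5 rose from 7.25 ± 0.311 to 12.7 ± 0.506 FPKM (SD, n = 3 each), with a log2 fold change of 0.80. The neighbours of this row had a median log2 fold change of 0.27.

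The ISG15 system attaches the ubiquitin-like protein ISG15 to other proteins. ISG15 itself fell, with 21.6, 22.1 and 21.0 FPKM in 231-BR cells and 31.7, 34.6 and 36.6 FPKM in MDA-MB-231 cells, a log2 fold change of -0.66 (SE 0.049, adjusted p = 6.6e-07). The other 3 of the 4 genes of the system on the list rose (75%), where 44.4% of all genes tested were called higher. ISG15 was the only one called lower (25%), against 32.9%. USP18, which removes ISG15 and restrains the type I receptor, had 2.08, 2.19 and 2.35 FPKM against 0.90, 0.80 and 0.72 FPKM, a log2 fold change of 1.35 (SE 0.10, adjusted p = 8.9e-07). The near copy USP41, which shares 15.4% of the 100-base stretches of USP18, was listed at 0 in 5 libraries. HERC5, the ligase that attaches ISG15, rose from 9.13 ± 0.380 to 12.9 ± 0.356 FPKM (SD, n = 3 each), and its relative HERC6 rose from 2.69 ± 0.061 to 4.90 ± 0.203 FPKM (SD, n = 3 each), with log2 fold changes of 0.50 and 0.84. HERC5 and HERC6 lie together on chromosome 4, where the median of their neighbours was 0.55. UBE2L6, the enzyme that carries ISG15 to its ligase, is no member of the list. Its change was larger than those of ISG15, USP18, HERC5 and HERC6. UBE2L6 had 33.4, 34.5 and 36.0 FPKM against 3.17, 2.94 and 3.41 FPKM, a log2 fold change of 3.41.

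Among the other antiviral effectors, 4 of the 7 tested (57.1%) rose, against 44.4% of all genes tested, and none was called lower, against 32.9%. Beside BST2, the GTPase MX1, which traps viral nucleocapsids, had 3.98, 3.80 and 3.74 FPKM in 231-BR cells and 0.70, 0.91 and 1.04 FPKM in MDA-MB-231 cells, a log2 fold change of 2.02 (SE 0.12, adjusted p = 1.6e-07). Its neighbour on chromosome 21, MX2, had at most 0.15 FPKM in any library and overlapped between the lines. SAMD9 had 8.81, 8.50 and 8.63 FPKM against 4.75, 4.25 and 3.90 FPKM, and its paralog SAMD9L had 2.96, 2.70 and 2.87 FPKM against 1.5, 1.53 and 1.18 FPKM. The log2 fold changes of this pair, which restricts poxviruses and lies together on chromosome 7, were 1.00 and 0.98, and both were higher in every 231-BR library. ISG20, an exonuclease, and XAF1, which antagonises XIAP and overlaps an opposite-strand gene over 38.3% of its exon bases, overlapped between the lines, with log2 fold changes of 0.20 (adjusted p = 0.34) and -0.25 (adjusted p = 0.26), and XAF1 was called lower after quantile normalization (-0.59, adjusted p = 0.020). RSAD2, or viperin, had 0.01 to 0.10 FPKM and was not tested.

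PARP9, which acts with DTX3L in interferon signalling, had 3.47, 3.77 and 3.56 FPKM in 231-BR cells and 1.74, 1.49 and 1.66 FPKM in MDA-MB-231 cells, a log2 fold change of 1.10 (SE 0.080, adjusted p = 6.1e-07). PARP14 had 5.83, 5.87 and 5.16 FPKM against 3.38, 2.91 and 2.89 FPKM, a log2 fold change of 0.86 (SE 0.080, adjusted p = 4.0e-06). Both genes were higher in every 231-BR library, and DTX3L, which shares the promoter of PARP9 and is no member, had a log2 fold change of 0.55. All 5 IFI-named genes were called higher, where 44.4% of all genes tested were. IFI44L had 2.35, 2.18 and 2.45 FPKM against 0.58, 0.36 and 0.44 FPKM, a log2 fold change of 2.13 (SE 0.14, adjusted p = 3.2e-07), whereas IFI44 beside it on chromosome 1 rose from 11.02 ± 0.304 to 15.5 ± 0.513 FPKM (SD, n = 3 each), with a log2 fold change of 0.49. IFI35 and IFI6 rose by 0.75 and 0.44 on the log2 scale. IFI27 had 0.37, 0.28 and 0.28 FPKM against 0.10, 0.09 and 0.27 FPKM, a log2 fold change of 0.76 that was called with an adjusted p = 0.022 and was not called without 231-BR replicate 1 (adjusted p = 0.080), MDA-MB-231 replicate 1 (adjusted p = 0.077) or MDA-MB-231 replicate 2 (adjusted p = 0.081). The call of IFI27 was also lost after quantile normalization (log2 fold change 0.40, adjusted p = 0.19).

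**Figure D2:**
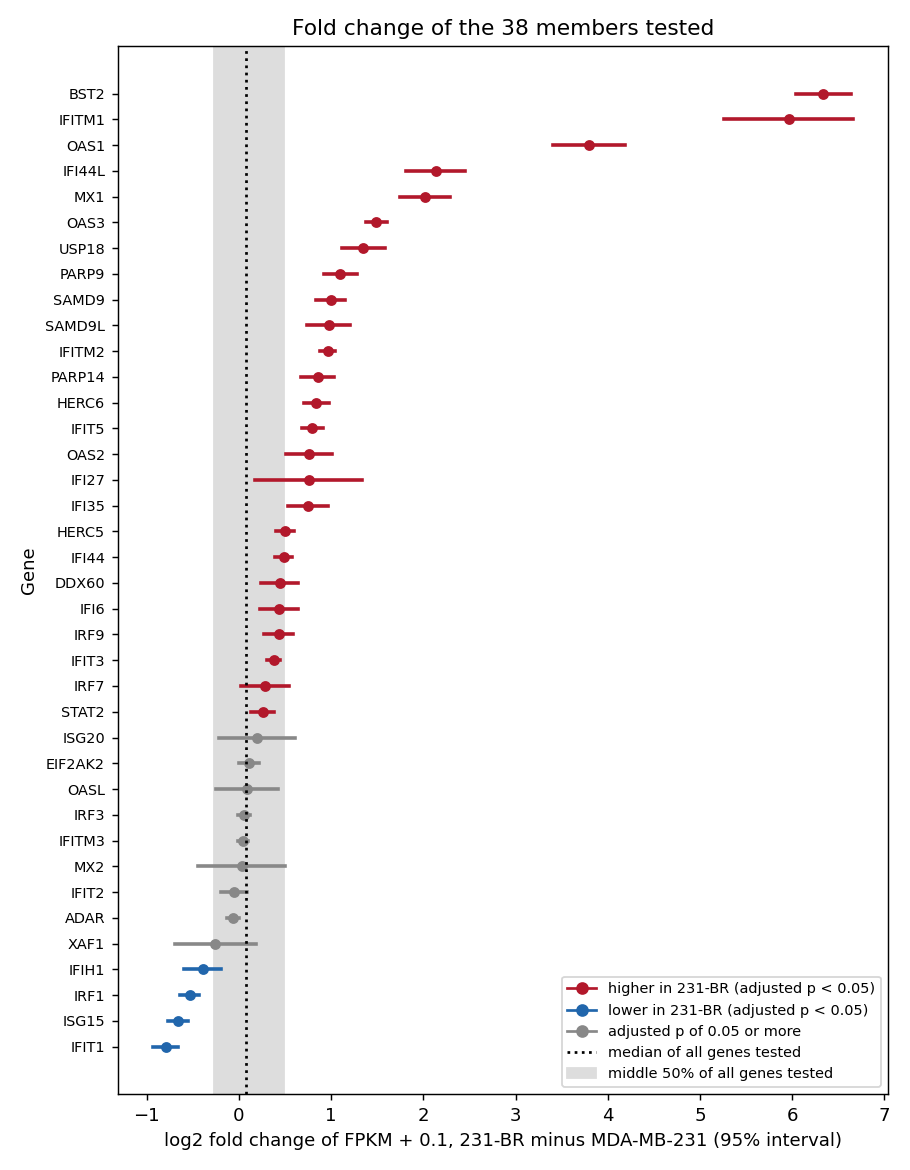
Log2 fold change of FPKM + 0.1 (231-BR minus MDA-MB-231) of the 38 genes tested, with bars for the 95% interval and colour for the call at an adjusted p under 0.05. The dotted line is the median of all genes tested, 0.08, and the grey band their middle 50%. The 18 genes from BST2 to HERC5 lie above the band, and ISG15, IFIT1, IRF1 and IFIH1 lie below it.

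Differentially expressed genes (DEGs) of larger size were called genes whose log2 fold change lay beyond 1 or -1 and whose means reached 1 FPKM in both lines. Of the 38 genes, OAS3 and PARP9 met these criteria, both higher in 231-BR cells, where 4.68% of all genes tested were DEGs of this direction, and none met them with a lower level, against 1.77%. SAMD9, at 0.996, and SAMD9L, at 0.977, lay just short of the fold criterion, and both met it when 231-BR replicate 2 (1.01 and 1.01) or MDA-MB-231 replicate 1 (1.07 and 1.03) was left out. Without MDA-MB-231 replicate 2 SAMD9L met it as well (1.04). When 1 line had to reach a mean of 1 FPKM, 8 genes met the criteria, all of them higher, against 8.07% of all genes tested (2.90% in the lower direction). These were BST2, IFITM1, OAS1, IFI44L, MX1, OAS3, USP18 and PARP9. BST2, IFITM1, OAS1, IFI44L, MX1 and USP18 averaged 0.053, 0.147, 0.1, 0.460, 0.883 and 0.807 FPKM in the parental cells. In the 231-BR libraries 34 or 35 of the 39 genes reached 1 FPKM, against 29 or 30 in the MDA-MB-231 libraries. Over all 17039 genes of the table, 11166 to 11178 did so per 231-BR library and 10785 to 10806 per MDA-MB-231 library.

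The 38 genes tested were spread over 15 chromosomes. For 28 of them the log2 fold change was above the median of up to 40 neighbouring genes, and the median difference from the neighbours was 0.47. The same comparison was not made over all genes tested, so this count has no reference share. Genes of 1 row also share their neighbours, so the comparisons are not separate. Among the genes called higher, HERC5 and DDX60 lay below their neighbours, with differences of -0.05 and -0.09. BST2 on chromosome 19 was the only one whose neighbours reached 0.58 or more, with a neighbour median of 1.03. BST2 itself lay 5.31 above its neighbours, IFITM1 lay 6.36 and OAS1 lay 3.43 above theirs. IFIT1 lay 1.07 below its neighbours (difference -1.07). ISG15, IRF1 and IFIH1, which also fell, lay below their neighbours by less, with differences of -0.22, -0.28 and -0.15. The medians of their surroundings were -0.44, -0.25 and -0.25.

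**Figure D3:**
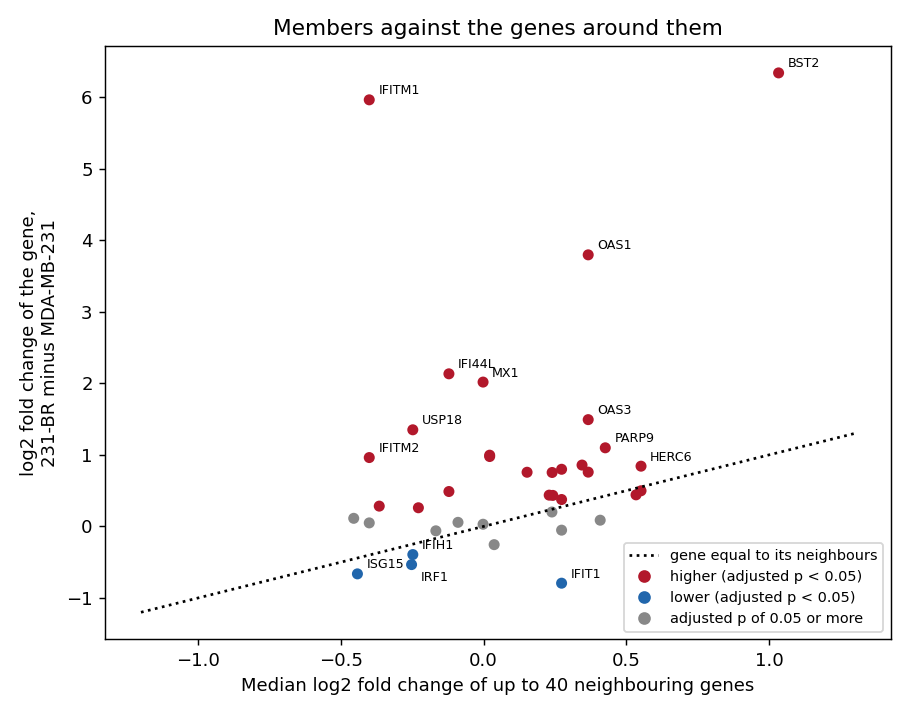
Log2 fold change of each of the 38 genes (vertical axis) against the median log2 fold change of up to 40 genes around it (horizontal axis), coloured by the call. The dotted line marks a gene equal to its neighbours. Above it lie 28 genes, a count without a reference share over all genes. BST2, whose neighbours had a median of 1.03, stands alone at the right.

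Of 21 interferon genes listed, IFNB1, IFNG and all interferon alpha genes are not among the genes of the table, and only IFNL1 and IFNL2 are. IFNL1 was listed at 0 in every 231-BR library and at 0.16, 0.15 and 0.20 FPKM in the MDA-MB-231 libraries, and IFNL2 at 0 in 5 of 6 libraries. Of 18 tested genes of the receptors and JAK-STAT signalling, 4 were higher and 7 lower, shares of 22.2% and 38.9% against 44.4% and 32.9% of all genes tested. Their median log2 fold change was -0.08. After median-of-ratios scaling 12 were lower, with a median of -0.17, and after quantile normalization 2 were higher, with a median of -0.15. IFNAR1 had 11.1 ± 0.179 FPKM in 231-BR against 11.8 ± 0.748 in the parental line (SD, n = 3 each), with a log2 fold change of -0.08 (adjusted p = 0.16), and IFNAR2 fell by 0.23 on the log2 scale (adjusted p = 0.025). For the interferon gamma receptor, IFNGR1 had a log2 fold change of -0.09 (adjusted p = 0.080) and IFNGR2 of -0.45 (adjusted p = 1.5e-05).

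The kinases of the type I receptor went apart. TYK2 had 26.5, 26.6 and 25.2 FPKM in 231-BR cells and 11.95, 12.9 and 13 FPKM in MDA-MB-231 cells, a log2 fold change of 1.04 (adjusted p = 8.3e-09), where its neighbours on chromosome 19 had a median of 0.72. JAK1 had 30.5, 30.0 and 29.9 FPKM against 41.6, 41.4 and 39 FPKM, a log2 fold change of -0.43 (adjusted p = 7.1e-07). The inhibitor SOCS1 rose from 1.04 ± 0.288 to 1.68 ± 0.229 FPKM (SD, n = 3 each), with a log2 fold change of 0.66, and PIAS1 fell by 0.44 on the log2 scale.

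Of 32 tested genes of nucleic acid sensing and its signalling, 17 were higher and 11 lower, shares of 53.1% and 34.4% against 44.4% and 32.9% of all genes tested. Their median log2 fold change was 0.19, and 0.033 after quantile normalization. RIG-I, listed as DDX58, had 10.4, 9.56 and 9.88 FPKM in 231-BR cells and 10.4, 10.0 and 10.1 FPKM in MDA-MB-231 cells, so that the libraries overlapped (log2 fold change -0.03, 95% interval -0.13 to 0.07, adjusted p = 0.51). TLR3, which senses double-stranded RNA in endosomes, and DHX58, which encodes LGP2, also did not pass the test (log2 fold changes -0.12 and 0.38, adjusted p = 0.36 and 0.13). MAVS, the adaptor of RIG-I and MDA5, rose by 0.14 on the log2 scale (adjusted p = 0.0086). The DNA sensor CGAS fell by 0.34 on the log2 scale (adjusted p = 0.00013) and its adaptor STING, listed as TMEM173, rose by 0.17 (adjusted p = 0.013). IKBKE, a kinase that phosphorylates IRF3 and IRF7, had the largest difference among the genes of the list that were called and reached 1 FPKM in either line, with 1.98, 2.38 and 2.30 FPKM against 6.79, 6.89 and 7.02 FPKM, a log2 fold change of -1.60 (adjusted p = 2.3e-08). TBKBP1, TRAF6 and RNF135 rose, with log2 fold changes of 1.29, 0.81 and 0.70, and SAMHD1 fell, with -0.79.

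Of 55 tested genes on a list of other interferon-stimulated genes, 28 were higher and 14 lower, shares of 50.9% and 25.5% against 44.4% and 32.9% of all genes tested, with a median log2 fold change of 0.16. After quantile normalization the list's median turned to -0.08, with 22 genes higher and 24 lower. LY6E, a membrane protein that restricts coronaviruses, had 121, 123 and 121 FPKM in 231-BR cells and 15.5, 15.3 and 16.5 FPKM in MDA-MB-231 cells, a log2 fold change of 2.94, where its neighbours on chromosome 8 had a median of 0.81. C19orf66, which encodes the frameshifting inhibitor shiftless, had 9.46, 10.4 and 9.39 FPKM against 1.82, 1.73 and 1.25 FPKM, a log2 fold change of 2.55, where its neighbours on chromosome 19 had a median of 0.76. LGALS3BP and PARP10 rose by 1.75 and 1.74 on the log2 scale, PARP10 among neighbours with a median of 0.59. Together with UBE2L6 these had the 5 largest changes among the genes of this list that were called and reached 1 FPKM in either line, all of them increases.

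**Figure D4:**
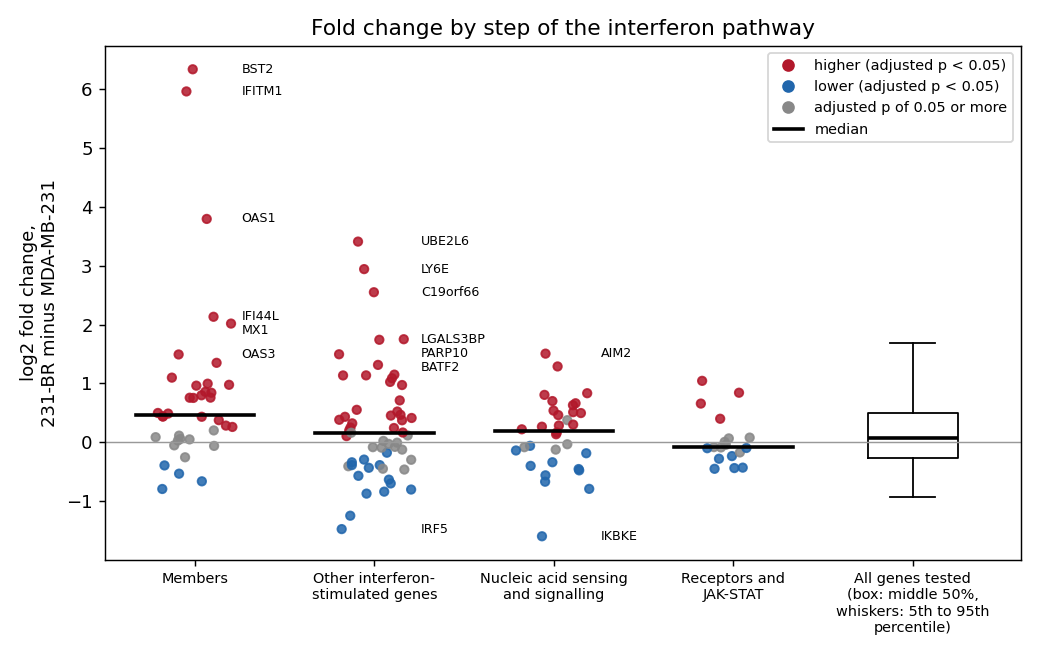
Log2 fold change (231-BR minus MDA-MB-231) of the 38 interferon genes and RNA sensors tested (Members) and of 55 other interferon-stimulated genes, 32 genes of nucleic acid sensing and 18 genes of the receptors and JAK-STAT signalling, each point a gene coloured by its call, with lines for the medians (0.46, 0.16, 0.19 and -0.08) and a box for all genes tested. BST2 and IFITM1 have the highest values of the genes shown and IKBKE the lowest.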

How the data were processed

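Poly(A) RNA of 231-BR and MDA-MB-231 cells, 3 libraries each, had been sequenced on a BGISEQ-500. The authors filtered the reads with SOAPnuke, mapped them with HISAT2 (v2.0.4) and Bowtie2 (v2.2.5), the latter to a gene set of the sequencing provider, and deposited FPKM with 2 decimals per gene. The submitters' processing notes name GRCh38.p12; the program that computed the FPKM and the annotation release are not given in the sources used here. Of 1238 low genes, 166 had equal FPKM in 231-BR replicates 1 and 2. Equality of rounded FPKM cannot tell whether low values move in steps of 1 read, because the depth of the libraries is unknown.

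Libraries were grouped by title. A model with the line as its term was fitted to log2(FPKM + 0.1) by limma 3.58.1 in R 4.3.3 (lmFit, then eBayes allowing a trend) over the 13465 genes whose mean FPKM was 0.1 or more, with p-values adjusted by Benjamini-Hochberg over all of them. The count test of the study could not be repeated on FPKM. Members and lists were chosen with earlier results of these data known, so list counts and medians are descriptions. Values per library are given for the 12 members with the largest changes, DEGs, sensors and transcription factors; other members and listed genes were named by rule or, as IFIT1, IFIT2, IFITM3, ISG15, IFI27 and DTX3L, after their values were seen. Neighbours were the 20 genes on either side in RefSeq order with a mean FPKM of at least 1, members left out. Promoters are RefSeq windows of 300 bases (GRCh38.p14), and transcripts are those of GENCODE release 29. The fit was tested on simulated data. Alternatives were other pseudocounts, filters, scalings, no trend, a replicate block, each library left out and other DEG criteria. Annotation and figures used Python 3.11.15. Values of 1 listed gene are not reported here.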

Additional observations from a re-analysis of the deposited data

How the results depend on the processing

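Of the 25 interferon genes called higher, 21 kept direction and call under all 14 refits that could test them, as did all 4 called lower, while each of the 9 uncalled genes changed sign or was called under at least 1. After quantile normalization 22 genes were higher and 7 lower, with a median log2 fold change of 0.34 and 1 gene past the DEG criteria with a lower level. There, JAK-STAT genes had 2 higher and a median of -0.15, sensing genes a median of 0.033, and other interferon-stimulated genes 24 lower and a median of -0.078, and the median over all genes was -0.060, a shift of -0.14. Median-of-ratios scaling gave 12 lower JAK-STAT genes, medians of -0.17 there and 0.11 for sensing genes, and -0.0021 over all genes. The median over all genes was also 0.06 with a pseudocount of 1 (0.056), without a filter (0.063) and at a mean FPKM of at least 1 (0.060). Counts of interferon genes past the DEG criteria, 2 as reported, were 1 with a pseudocount of 1, 4 with 0.01, 0 at a fold criterion of 1.5, 8 with 1 FPKM in either line and 2 to 4 with a library left out. Over all genes, DEGs numbered 236 higher and 89 lower at 1.5, and 1086 and 390 with 1 FPKM in either line. The sign turned for IFITM3 (-0.034), MX2 (-0.011) and IRF3 (-0.026) after median-of-ratios scaling, for ISG20 (-0.19), MX2 (-0.31), OASL (-0.33) and IRF7 (-0.060) after quantile normalization, and with 1 library left out for MX2 (-0.0060 without MDA-MB-231 replicate 2, range to 0.16) and OASL (-0.0825 without 231-BR replicate 2, range to 0.23). The cause was not tested. Same-numbered libraries showed correlations of 0.015, -0.018 and -0.027 between their deviations, which gave no sign of pairing by number. These correlations cannot tell whether the libraries were prepared in pairs. With the replicate number as a block, 26 interferon genes were higher and 4 lower, with a median of 0.46; IFITM3 and EIF2AK2 passed and IRF7 (adjusted p = 0.058) did not. The unknown depth limits what can be said of genes under 1 FPKM.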
